A study of Mus musculus with 17 samples.

Results

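Natriuretic peptide and hypertrophic stress genes of the heart, Nppa, Nppb, Ankrd1, Acta1, Actc1 and Rcan1, were followed across all 17 libraries of the study. They were listed by name and not by a cut on their measured values, but with earlier results of these data known. Each symbol was matched to an Ensembl gene in the count table. All 6 had a row among 55486 gene rows, and all 6 were among the 13229 genes that entered the tests. RNA had been sequenced from ventricular myocytes isolated by enzymatic perfusion from hearts of 60-day-old mice and plated on laminin. KO denotes mice with loss of function of MBNL1, a muscleblind RNA-binding protein that acts on splicing and turnover of transcripts, and WT denotes control mice. The cells were harvested before treatment (0 h) or after 4 or 8 h with actinomycin D, an inhibitor of transcription, at 2 µg/mL. KO had 3 libraries at 0, 4 and 8 h, and WT had 3 at 0 h, 2 at 4 h and 3 at 8 h. The labels give neither the allele, nor a driver of the deletion, nor whether replicates came from separate animals, so p-values measure the spread between these samples, which may be technical. No libraries were kept in culture for 4 or 8 h without the drug, so time in culture and the drug cannot be told apart. The design asks which transcripts differ in stability between the genotypes.

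Nppa and Nppb encode the precursors of atrial and brain natriuretic peptide, hormones released by stretched or overloaded cardiomyocytes. The peptides act through receptor guanylyl cyclases and cGMP, and their genes are low in the healthy adult ventricle and rise again in hypertrophy and heart failure. Acta1 encodes skeletal alpha-actin, a sarcomeric actin of the fetal and the overloaded rodent heart, and Actc1 encodes cardiac alpha-actin, the main sarcomeric actin of the adult heart. Ankrd1 encodes a muscle ankyrin repeat protein that binds titin at the I band and responds to stretch. Rcan1 encodes an inhibitor of the phosphatase calcineurin and is itself a target of the calcineurin and NFAT pathway.

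By GENCODE M21 on GRCm38, the genes are Nppa (ENSMUSG00000041616) at chr4:148000722-148002079 and Nppb (ENSMUSG00000029019) at chr4:147985788-147987205, both on the forward strand. On the reverse strand lie Ankrd1 (ENSMUSG00000024803) at chr19:36111961-36120099, Acta1 (ENSMUSG00000031972) at chr8:123891769-123894751, Actc1 (ENSMUSG00000068614) at chr2:114047282-114053548 and Rcan1 (ENSMUSG00000022951) at chr16:92391953-92470867.

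Library totals ranged from 17058419 to 17968827 gene counts, and mitochondrially encoded genes held 35.1 to 43.3% of them. Levels are in CPM, a gene's part of the library's scaled total, after TMM scaling, which sets the libraries to a common middle of their genes. Every value is therefore relative to the other transcripts of the library, and so is a rise or fall during the block. Markers of ventricular cardiomyocytes were abundant, with Myh6 at 20176 CPM and Myl2 at 6259 CPM on average over all libraries. Mbnl1 itself had 103, 104 and 93.9 CPM in KO at 0 h, against 88.8, 86.3 and 87.3 CPM in WT, a log2 fold change of 0.19 that was -0.01 with library size alone, so gene counts do not check the genotype. Esr1, the gene of oestrogen receptor alpha, had 36443 to 46057 counts in the 9 KO libraries and 0 to 57 in the 8 WT libraries. Counts per gene do not show which part of Esr1 these reads cover, nor whether they come from its own locus. Effects of MBNL1 loss and of whatever else differs between KO and WT cannot be told apart.

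Promoter sequences are shown for the 4 members whose levels were highest relative to WT at 0 h, Nppa, Acta1, Nppb and Actc1. They are RefSeq sequences of the mouse build GRCm38.p6, from 250 bases before to 50 after the transcription start, read in the direction of the gene. Capitals mark matches, on either strand, to the CArG box bound by SRF, to GATA sites (AGATAA or TGATAA), to the MCAT site bound by TEAD factors (GGAATG) and to the TATA box (TATAAA). Nppa lies at chr4:148000472-148000771 on the forward strand, Nppb at chr4:147985650-147985949 on the forward strand, Acta1 at chr8:123894726-123895025 on the reverse strand and Actc1 at chr2:114052826-114053125 on the reverse strand.
Nppa: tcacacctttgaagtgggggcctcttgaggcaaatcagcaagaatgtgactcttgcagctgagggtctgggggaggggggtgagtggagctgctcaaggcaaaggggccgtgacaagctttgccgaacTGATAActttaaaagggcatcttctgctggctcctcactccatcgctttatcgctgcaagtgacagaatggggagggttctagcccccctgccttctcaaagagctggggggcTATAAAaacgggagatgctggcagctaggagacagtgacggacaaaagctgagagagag
Nppb: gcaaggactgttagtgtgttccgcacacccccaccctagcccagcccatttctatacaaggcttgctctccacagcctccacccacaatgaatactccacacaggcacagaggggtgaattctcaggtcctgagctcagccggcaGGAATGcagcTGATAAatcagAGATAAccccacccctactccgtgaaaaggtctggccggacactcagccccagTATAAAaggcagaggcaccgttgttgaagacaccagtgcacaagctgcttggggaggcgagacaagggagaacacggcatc
Acta1: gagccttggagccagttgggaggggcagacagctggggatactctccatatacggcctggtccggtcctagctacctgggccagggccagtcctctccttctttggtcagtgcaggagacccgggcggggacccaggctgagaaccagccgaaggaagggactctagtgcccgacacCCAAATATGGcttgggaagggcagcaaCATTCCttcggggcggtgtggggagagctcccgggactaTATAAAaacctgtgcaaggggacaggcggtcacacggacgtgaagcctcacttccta
Actc1: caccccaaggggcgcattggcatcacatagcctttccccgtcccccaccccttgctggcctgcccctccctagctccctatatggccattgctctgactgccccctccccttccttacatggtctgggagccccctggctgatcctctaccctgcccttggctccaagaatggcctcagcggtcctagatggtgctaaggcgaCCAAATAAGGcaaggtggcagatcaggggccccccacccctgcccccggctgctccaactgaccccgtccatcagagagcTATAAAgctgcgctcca

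The 2 natriuretic peptide promoters each held a TATA box and a GATA match, and Nppb also held an MCAT match. Both sarcomeric actin promoters held a TATA box and a CArG box, a motif found in 1.63% of 32851 promoters of the same length. GATA matches were present in 18.6% of them, MCAT matches in 14.7% and TATA boxes in 13.6%. Ankrd1 had 2 MCAT matches and 1 GATA match, and neither of the 2 annotated Rcan1 start sites had a match to any of these motifs. A match is a description of the letters and shows no binding.

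Because the study measured decay, the 3′ UTRs were searched for AUUUA, the pentamer of AU-rich elements in many short-lived mRNAs, and for YGCY, the core of the motif bound by MBNL1, where Y is a pyrimidine. The windows below, of 30 bases each, hold the densest stretch of the motif in capitals, with AUUUA in Nppb, Ankrd1 and Actc1 and YGCY in Rcan1. They lie in the terminal 3′ UTR of the annotated transcript (GENCODE M21, GRCm38), at chr4:147987059-147987088 (forward) for Nppb, chr19:36112503-36112532 (reverse) for Ankrd1, chr2:114047325-114047354 (reverse) for Actc1 and chr16:92393279-92393308 (reverse) for Rcan1.
Nppb: ugauccuAUUUAUUUAUUUAUUUAuAUUUA
Ankrd1: cacuuuuAUUUAuuccuaccuAUUUAUUUA
Actc1: agugcaguuuguuugugcuucaaauAUUUA
Rcan1: aaggccuccuccccuuguucugaUGCUGCC

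Nppb carried 6 AUUUA pentamers in a 3′ UTR of 227 bases. Among 1282 3′ UTRs of tested genes within 1.5 times that length, 1 had as many, which was Nppb itself. Ankrd1 carried 4 in 742 bases, a number reached by 9.66% of 3′ UTRs of like length. Actc1 carried 1 in 184 bases, reached by 27.8% of 3′ UTRs of like length. Nppa, Acta1 and Rcan1 carried none, in 293, 240 and 1500 bases. At least 1 was present in 70.7% of 11987 3′ UTRs of tested genes of all lengths, with a median length of 1220 bases. The 3′ UTRs of Nppa and Acta1 are far shorter, so that share is no measure for them. YGCY was common, with at least 1 match in 97.2% of 3′ UTRs. Rcan1 held 20 matches in 1500 bases, a number reached by 49.5% of 3′ UTRs of like length.

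The members covered a wide range of levels when expressed per kilobase of merged exons. In KO at 0 h the order was Actc1 (8703 ± 413 CPM per kb, SD, n = 3), Ankrd1 (562 ± 13), Nppb (488 ± 35.4), Acta1 (276 ± 18), Rcan1 (127 ± 7.53) and Nppa (115 ± 3.62). WT at 0 h had the same order, at 6976 ± 313, 514 ± 11.3, 321 ± 32.3, 172 ± 3.88, 122 ± 6.07 and 71.4 ± 0.311 CPM per kb (SD, n = 3). No neighbours in either order overlapped between libraries. In KO the lowest places changed during the block. Nppa and Rcan1 overlapped in KO at 4 h (129 to 141 against 126 to 130 CPM per kb), and Nppa was the higher of the pair in every KO library at 8 h (145 to 163 against 99.5 to 106 CPM per kb). In WT, Rcan1 remained above Nppa at 8 h, at 119 to 137 against 85.5 to 93.7 CPM per kb.

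**Figure D1:**
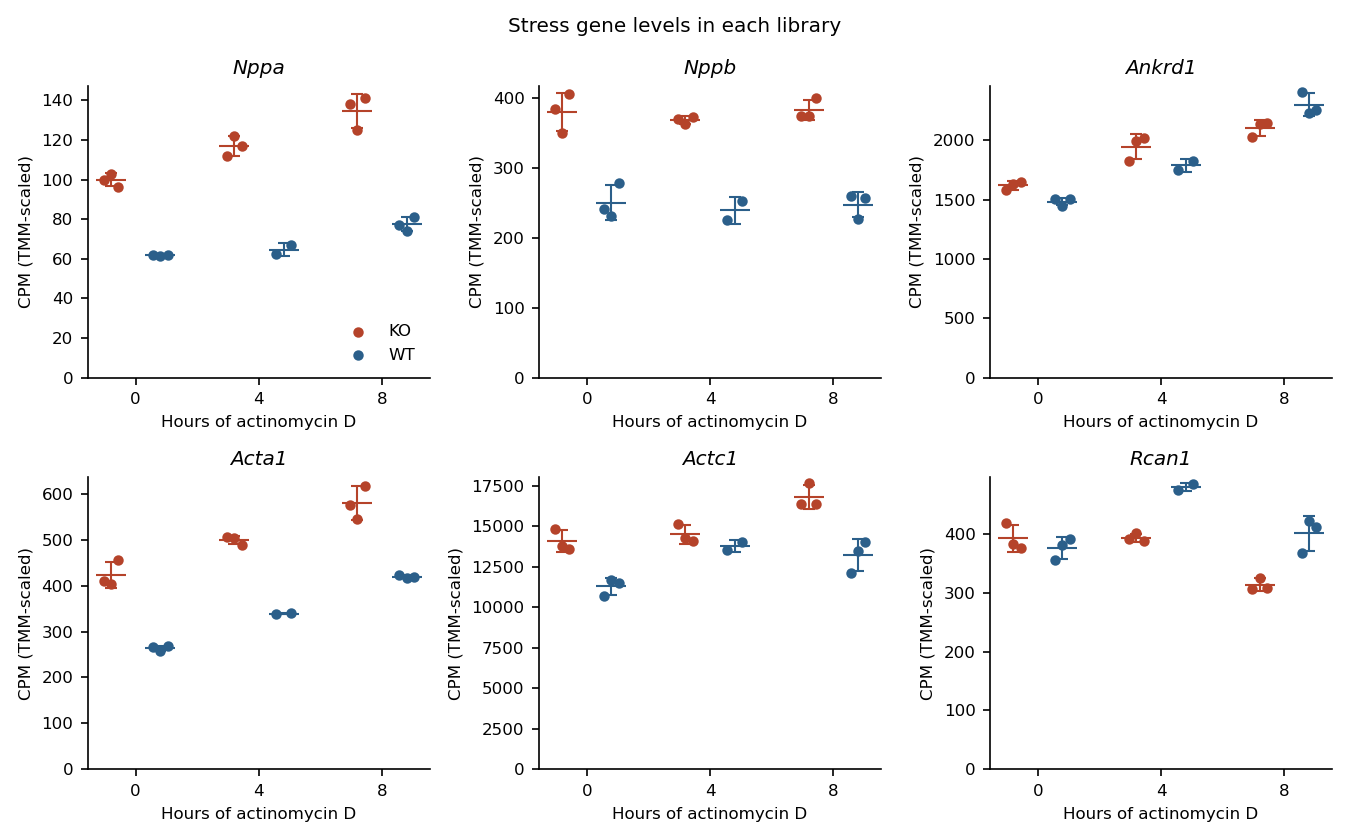
Level of each of the 6 genes in every library (points, CPM after TMM scaling) against hours of actinomycin D, KO to the left of WT at each time; bars give the mean and SD (n = 3, or 2 for WT at 4 h). KO points lie above all WT points for Nppa, Nppb and Acta1 at 0, 4 and 8 h, and below all WT points for Rcan1 at 4 and 8 h.

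Before the block, 5 of the 6 genes were higher in KO than in WT by edgeR's quasi-likelihood test (adjusted p below 0.05), in a comparison in which 36.6% of all tested genes were called, 18.8% higher and 17.9% lower. At 4 h, 4 were higher and 1 lower, where 32% of tested genes were called, 14.6% higher and 17.4% lower. At 8 h, 4 were higher and 2 lower, where 27.6% were called, 13.9% higher and 13.7% lower. The median log2 fold change of the 6 genes was 0.46 at 0 h, 0.34 at 4 h and 0.41 at 8 h, and that of all tested genes was -0.02, -0.04 and -0.02. With this many genes called at every time, a call by itself does not set the members apart. The balance of higher and lower calls over all genes depended on the scaling. At 0 h, 2485 genes were higher and 2363 lower in KO with TMM, 906 and 5563 when only library size was used, 474 and 7644 after ribosomal protein scaling and 341 and 8512 after ventricular marker scaling. Against TMM, the median over all genes shifted by -0.21, -0.33 and -0.39 under the last 3, and the members shifted with it. Nppa stood at the 97th percentile of fold changes among tested genes at 0 h, Acta1 at 96.9 and Nppb at 95.9.

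Nppa was higher in KO at every time, by more than the other members at 4 and 8 h with TMM scaling and by about as much as Acta1 at 0 h. With ventricular marker scaling the difference of Rcan1 was the larger in size at each time (at 0 h -0.33 for Rcan1 and 0.30 for Nppa). Nppa had 100, 103 and 96.5 CPM in KO libraries at 0 h, against 62, 61.5 and 61.8 CPM in WT libraries. At 4 h it had 112, 122 and 117 CPM in KO, against 62.2 and 66.8 CPM in WT, and at 8 h 138, 125 and 141 CPM in KO, against 77.2, 74 and 81 CPM in WT. All KO libraries were high and all WT libraries low at each time, without overlap. The log2 fold change of KO over WT was 0.69 ± 0.05 at 0 h (SE, edgeR adjusted p = 4.9e-18), 0.86 ± 0.06 at 4 h (1.5e-19) and 0.80 ± 0.05 at 8 h (4.8e-21). Under the other scalings, tests and sample selections tried it stayed called, at 0.30 to 0.72 for 0 h and 0.55 to 0.85 for 8 h.

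Nppb, the higher of the natriuretic peptide transcripts, had 385, 351 and 406 CPM in KO at 0 h, against 242, 231 and 279 CPM in WT. At 4 h it had 371, 363 and 373 CPM in KO, against 226 and 253 CPM in WT, and at 8 h 375, 375 and 400 CPM in KO, against 260, 227 and 257 CPM in WT. The groups were again separate at every time, and WT replicate 3 at 0 h was the highest of the WT libraries. The log2 fold changes were 0.60 ± 0.07 at 0 h (SE, edgeR adjusted p = 2.5e-06), 0.62 ± 0.08 at 4 h (1.0e-05) and 0.63 ± 0.07 at 8 h (2.4e-06), and 0.21, 0.26 and 0.38 were the lowest values under the alternatives, all still called.

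Markers of other cells moved with the genotype as well. Among atrial cardiomyocyte markers, 6 of 9 tested (10 listed) were lower in KO at 0 h, with summed levels of 33.1 to 36.2 CPM in KO against 42.1 to 46.6 CPM in WT. This sum mainly follows Stard10 and Tbx5, which averaged 15 and 13.8 CPM over all libraries. Any other marker of the list averaged at most 4.06 CPM (Myl4), and Sln averaged 0.728 CPM. Ventricular cardiomyocyte markers were higher in KO, 7 of 10 at 0 h with a median log2 fold change of 0.47 and summed levels of 47461 to 50293 CPM in KO against 35537 to 38695 CPM in WT. In bulk samples, more cells of a type and more RNA per cell cannot be told apart. Macrophage and leukocyte (11 of 11), fibroblast (9 of 10) and endothelial markers (8 of 10) were lower in KO at 0 h, with summed levels of 37.1 to 40.3 against 89.8 to 103 CPM, 41.4 to 45.5 against 77.6 to 80.5 CPM and 189 to 216 against 266 to 275 CPM. Of the smooth muscle and pericyte markers 1 of 8 tested was lower, at summed levels of 442 to 471 CPM in KO against 545 to 569 CPM in WT. That sum mainly follows Abcc9, which averaged 421 CPM over all libraries, against 102 CPM for Acta2 and at most 14.2 CPM (Rgs5) for any other marker of the list. Of the endocardial and epicardial markers 1 of 5 was higher, at 9.18 to 10.7 against 8.99 to 10.2 CPM. When libraries were instead scaled to the summed ventricular markers, an alternative chosen after seeing the data, Nppa at 0 h was 0.30, Nppb 0.21 and Acta1 0.29 in KO over WT, all still called. The part of cell composition in the differences of the members was not tested further.

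**Figure D2:**
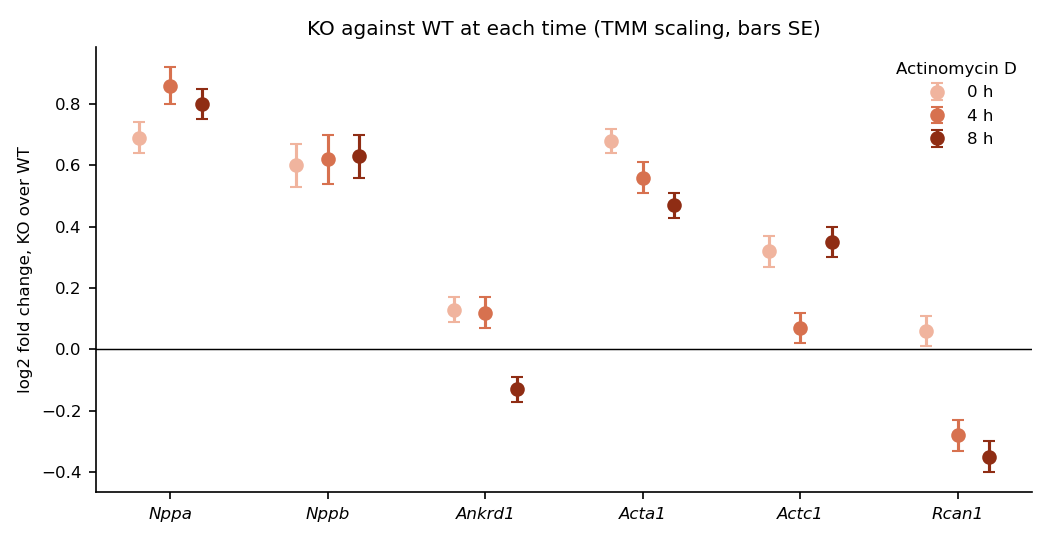
Log2 fold change of KO over WT (vertical axis, TMM scaling) for each gene at 0, 4 and 8 h of actinomycin D; bars give the SE. Nppa lies between 0.69 and 0.86, Nppb near 0.6 and Acta1 between 0.47 and 0.68 at the 3 times, while Rcan1 lies at 0.06 at 0 h and at -0.35 at 8 h.

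During the block Nppa rose with TMM scaling in both genotypes, and Nppb did not pass the test. Nppa rose in KO by 8 h to 135 ± 8.4 CPM, against 99.8 ± 3.13 CPM at 0 h (SD, n = 3 each), a log2 fold change of 0.43 ± 0.05 (SE, edgeR adjusted p = 6.1e-11). In WT it rose to 77.4 ± 3.53 CPM at 8 h, against 61.8 ± 0.269 CPM at 0 h (SD, n = 3 each), at 0.33 ± 0.05 (SE, 2.2e-07). At 4 h the change was 0.23 ± 0.05 in KO (2.7e-04) and 0.06 ± 0.06 in WT, which was not called (0.460). These rises depend on the scaling. The median of all genes was shifted by -0.39 in KO and -0.67 in WT when 80 ribosomal protein transcripts were the standard, with 50 genes called higher and 11293 lower by 8 h in WT. With that scaling, Nppa at 8 h over 0 h was 0.04 in KO and -0.34 in WT.

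With TMM scaling, Nppb did not differ detectably between times. It averaged 383 ± 14.4 CPM at 8 h and 381 ± 27.6 CPM at 0 h in KO, and 248 ± 18.6 CPM at 8 h and 251 ± 25.2 CPM at 0 h in WT (SD, n = 3 each). The log2 fold change of 8 h over 0 h was 0.01 in KO, with a 95% interval of -0.13 to 0.15, and -0.02 in WT, with an interval of -0.16 to 0.12. With ribosomal protein scaling it was called lower in both genotypes, at -0.38 in KO and -0.69 in WT, and with ventricular marker scaling at -0.31 and -0.48. With library size alone, that is as a plain share of the counts, it was lower in WT at 4 h (-0.25, edgeR adjusted p = 0.0404) and at 8 h (-0.23, 0.0135), and was -0.10 in KO at 8 h (0.328). Within libraries, Nppa counts per 100 Nppb counts were 35.1 ± 1.75 in KO and 31.3 ± 1.46 in WT at 8 h, against 26.4 ± 2.77 in KO and 24.8 ± 2.36 in WT at 0 h (SD, n = 3 each), a measure no scaling can change. KO and WT overlapped at 0 h (exact permutation p = 0.5) and were separate at 8 h (two-sided exact p = 0.1, the smallest this design can give).

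Of the other genes of natriuretic peptide processing and reception, 8 of 10 listed were tested, and 2 were higher in KO at 0 h with TMM scaling, with a median log2 fold change of -0.12. Beside the shift of all genes given above, 6 of the 8 were lower under each of library size alone (median -0.33), ribosomal protein scaling (-0.45) and ventricular marker scaling (-0.51). Furin, a convertase that cleaves the BNP precursor, averaged 56.8 ± 3.63 CPM in KO against 39.7 ± 2.52 CPM in WT (SD, n = 3 each), at 0.51 ± 0.06 (SE, edgeR adjusted p = 2.2e-10), a call lost with ventricular marker scaling (0.13). Mme, the neprilysin gene whose product degrades natriuretic peptides, was called at 0.29 ± 0.11 (0.0288), a call lost when only library size was used (0.08), and the value was -0.05 with ribosomal protein scaling. Corin, the protease that activates the ANP precursor, had 215 ± 3.65 CPM in KO against 209 ± 12.1 CPM in WT. At 8 h of block in WT, 3 of the 8 were higher and 3 lower than at 0 h with TMM. With ribosomal protein scaling all 8 were lower, where 11293 of all tested genes were lower. Npr1, the receptor guanylyl cyclase for ANP and BNP, fell to 0.606 ± 0.284 CPM at 8 h in WT, against 3.5 ± 0.625 CPM at 0 h, by 2.53 ± 0.26 on the log2 scale (SE, 4.3e-13). Npr1 fell beside the endothelial markers, of which 10 of 10 fell in WT, with summed levels of 53.6 to 57.7 CPM at 8 h against 266 to 275 CPM at 0 h, and the part of endothelial RNA in its level was not tested.

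Among cGMP signalling genes below the receptors, 2 of 8 tested (11 listed) were higher and 1 lower in KO at 0 h with TMM. With ribosomal protein or ventricular marker scaling 1 was higher and 4 lower, where 7644 and 8512 of all 13229 tested genes were lower. Prkg1, cGMP-dependent protein kinase I, had 24.3 ± 0.81 CPM in KO against 15.8 ± 0.523 CPM in WT, a log2 fold change of 0.62 ± 0.07 (SE, edgeR adjusted p = 1.8e-10) that was called under each of 5 scalings. Pde1c, a phosphodiesterase that hydrolyses cyclic nucleotides, was lower, at 80.8 ± 2.67 CPM in KO against 111 ± 2.79 CPM in WT (-0.46 ± 0.05, SE, 2.6e-12), again under all 5 scalings. Vasp, a substrate of the kinase, was called at 0.33 ± 0.09 (0.00205) and turned to -0.06 with ventricular marker scaling.

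The sarcomeric actins differed in size of effect. Acta1 had 411, 404 and 455 CPM in KO at 0 h, against 266, 257 and 268 CPM in WT. At 4 h it had 507, 503 and 489 CPM in KO, against 338 and 340 CPM in WT, and at 8 h 577, 545 and 618 CPM in KO, against 423, 417 and 418 CPM in WT. KO libraries were all higher than WT libraries at each time. The log2 fold changes were 0.68 ± 0.04 at 0 h (SE, edgeR adjusted p = 6.4e-21), 0.56 ± 0.05 at 4 h (8.3e-15) and 0.47 ± 0.04 at 8 h (3.8e-14), called under every alternative tried, with lowest values of 0.29, 0.20 and 0.22.

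Actc1 had 14848, 13776 and 13620 CPM in KO at 0 h, against 10710, 11655 and 11499 CPM in WT. At 4 h it had 15171, 14251 and 14077 CPM in KO, against 13511 and 14045 CPM in WT, and at 8 h 16395, 17670 and 16364 CPM in KO, against 12103, 13496 and 14053 CPM in WT. KO was separate from and above WT at each time, narrowly at 4 h. The log2 fold change was 0.32 ± 0.05 at 0 h (SE, edgeR adjusted p = 1.6e-07), 0.07 ± 0.05 at 4 h (0.317, not called) and 0.35 ± 0.05 at 8 h (3.0e-08). At 0 h it was 0.11 with library size alone, -0.01 with ribosomal protein scaling and -0.07 with ventricular marker scaling, none called. At 4 h it was called lower in KO under the last 2 of these (-0.28, adjusted p = 0.00136, and -0.25, 0.00276), and at 8 h its call was lost with ventricular marker scaling (0.10, 0.217).

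Acta1 counts per 100 Actc1 counts compare the actins inside each library. They were 2.77, 2.93 and 3.34 in KO at 0 h, against 2.49, 2.21 and 2.33 in WT. At 4 h they were 3.34, 3.53 and 3.47 in KO, against 2.5 and 2.42 in WT, and at 8 h 3.52, 3.09 and 3.78 in KO, against 3.49, 3.09 and 2.97 in WT. The genotypes were separate at 0 and 4 h (two-sided exact permutation p = 0.1 each, the smallest possible) and overlapped at 8 h (p = 0.3). The 2 actins share most of their coding sequence, and how reads matching both were counted is not given in the sources used here, so the split of counts between them is uncertain. Skeletal muscle markers were also higher in KO, 4 of 6 tested (11 listed) at 0 h with a median log2 fold change of 1.46, but at summed levels of 23.5 to 25.2 CPM in KO against 8.82 to 9.86 CPM in WT. Of the adult fast skeletal myosins, Myh1 had 0 counts in every library and Myh2 and Myh4 had 0 or 1. The part of these markers in the Acta1 difference was not tested.

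**Figure D3:**
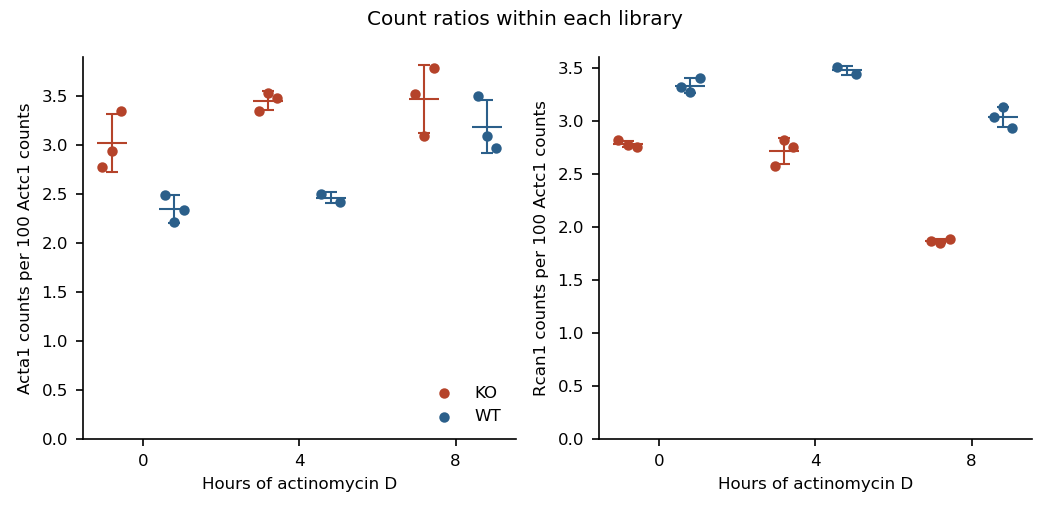
Counts of Acta1 (left) and of Rcan1 (right) per 100 counts of Actc1 in each library, against hours of actinomycin D, KO to the left of WT; bars give mean and SD. Acta1 per 100 Actc1 is higher in KO at 0 and 4 h and overlaps at 8 h (3.46 in KO, 3.18 in WT), while Rcan1 per 100 Actc1 is lower in every KO library, reaching 1.87 in KO against 3.04 in WT at 8 h.

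During the block Acta1 rose in both genotypes, to 580 ± 36.7 CPM at 8 h in KO, against 423 ± 27.6 CPM at 0 h, and to 419 ± 3.21 CPM at 8 h in WT, against 264 ± 5.96 CPM at 0 h (SD, n = 3 each). The log2 fold changes were 0.45 ± 0.04 in KO (SE, edgeR adjusted p = 8.9e-14) and 0.67 ± 0.04 in WT (9.0e-21). Actc1 rose by 0.26 ± 0.05 in KO (1.1e-05) and 0.23 ± 0.05 in WT (5.5e-05) on the same scale. With ribosomal protein scaling these 4 changes were 0.06 and 0.00 for Acta1 and -0.14 and -0.44 for Actc1. With library size alone Actc1 kept its call in KO but was 0.01 in WT (edgeR adjusted p = 0.862). With ventricular marker scaling it was -0.07 in KO, not called, and -0.23 in WT, called lower (0.00122). On the deposited ratios (pseudocount 0.01) Actc1 was 0.04 in KO and 0.12 in WT, neither called by limma. Of the non-sarcomeric actins, Actb fell to 39.8 ± 0.698 CPM at 8 h in WT, against 68.3 ± 3.39 CPM at 0 h, by 0.78 ± 0.06 (SE, 2.9e-18), and Actg1 fell by 0.63 ± 0.06 (5.8e-14), both called lower under all 5 scalings. Actb was also lower in KO than in WT at 0 h (-0.28 ± 0.06, SE, 4.5e-05). Acta2, the smooth muscle isoform, was called higher at 8 h in WT (0.17 ± 0.05, SE, 0.00754) and turned to -0.05 with library size alone.

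The genotype difference of Ankrd1 was small and, with TMM scaling, was called higher in KO at 0 and 4 h and lower at 8 h. Ankrd1 had 1580, 1633 and 1652 CPM in KO at 0 h, against 1502, 1447 and 1505 CPM in WT, and at 4 h 1825, 1993 and 2021 CPM in KO, against 1748 and 1830 CPM in WT. At 8 h it had 2027, 2136 and 2146 CPM in KO, against 2411, 2235 and 2257 CPM in WT. KO was above WT at 0 h, overlapped it at 4 h and was below it at 8 h. The log2 fold changes were 0.13 ± 0.04 at 0 h (SE, edgeR adjusted p = 0.0118), 0.12 ± 0.05 at 4 h (0.0374) and -0.13 ± 0.04 at 8 h (0.0136). The first turned to -0.08 when only library size was used, to -0.20 with ribosomal protein scaling and -0.26 with ventricular marker scaling, and its call was lost without KO replicate 3 at 0 h. The 4 h call was lost without KO replicate 2, KO replicate 3 or WT replicate 1 at that time and with library size alone (0.07), and the value was called lower in KO with ribosomal protein scaling (-0.24, adjusted p = 0.00124) and ventricular marker scaling (-0.20, 0.0160). Under these last scalings Ankrd1 was thus lower in KO at every time. The 8 h call was lost without KO replicate 1 or without WT replicate 1 at that time, and with DESeq2 (-0.11, 0.0637).

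The rise of Ankrd1 during the block was larger in WT. By 8 h it was 0.38 ± 0.04 in KO (SE, edgeR adjusted p = 1.9e-11) and 0.63 ± 0.04 in WT (1.4e-20), and with ribosomal protein scaling -0.02 in KO and -0.04 in WT, neither called. The difference of the changes was -0.26 ± 0.06 (SE, 0.00332), and it lost its call with library size alone (-0.15, adjusted p = 0.220), with ventricular marker scaling (-0.12, 0.515) and with ribosomal protein scaling (0.02, 0.877). Ankrd1 counts per 100 Actc1 counts were 12.5 ± 0.513 in KO and 17.5 ± 2.06 in WT at 8 h and 11.5 ± 0.814 in KO and 13.2 ± 0.802 in WT at 0 h (SD, n = 3 each), separate between genotypes at both times (two-sided exact permutation p = 0.1, the smallest possible). At 4 h the genotypes overlapped (exact permutation p = 0.6). Actc1, the denominator, was itself higher in KO at 0 and 8 h with TMM scaling (0.32 and 0.35).

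Among 14 related ankyrin repeat, Z disc and I band genes, 6 were higher and 1 lower in KO at 0 h, and 9 were higher and 1 lower in WT at 8 h than at 0 h, with TMM scaling (18.8% of all genes higher and 17.9% lower in the first comparison, 25% and 26.8% in the second). Scaled to ribosomal protein transcripts, 7 were lower in KO at 0 h and 11 lower at 8 h in WT, and with ventricular marker scaling 8 were lower in KO at 0 h. Over all 13229 tested genes, 7644, 11293 and 8512 were lower in these comparisons, in the same order. Fhl2, a LIM protein bound to titin, had 1911 ± 43.1 CPM in KO against 1396 ± 98.9 CPM in WT at 0 h, a log2 fold change of 0.45 ± 0.04 (SE, edgeR adjusted p = 2.0e-13) that was not called with ribosomal protein or ventricular marker scaling. Xirp1, an actin-binding repeat protein of the intercalated disc, fell to 111 ± 4.37 CPM at 8 h in WT, against 189 ± 7.21 CPM at 0 h, by 0.77 ± 0.05 (SE, 8.2e-23), and Ybx1, which encodes a partner of the Ankrd1 protein, rose by 0.74 ± 0.04 (4.5e-24). The fall of Xirp1 was called under all 5 scalings and the rise of Ybx1 under 4. At 8 h 5 of the 14 had a lower change in KO than in WT with TMM, where 3.33% of all genes did, among them the stretch sensor gene Csrp3 (-0.29 ± 0.06, SE, 0.00154) and Ybx1 (-0.26 ± 0.06, 0.00232). The calls of Csrp3 and Ybx1 were lost with library size alone, ribosomal protein scaling and ventricular marker scaling, and Ybx1 turned to 0.02 with ribosomal protein scaling. The median of the 14 was -0.17 with TMM, -0.06 with library size alone, -0.03 with ventricular marker scaling and 0.11 with ribosomal protein scaling.

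Rcan1 behaved unlike the other members. At 0 h it had 419, 383 and 376 CPM in KO, against 356, 382 and 392 CPM in WT. At 4 h it had 391, 401 and 389 CPM in KO, against 475 and 485 CPM in WT, and at 8 h 307, 326 and 309 CPM in KO, against 368, 423 and 412 CPM in WT. The genotypes overlapped at 0 h and were separate, with KO lower, at 4 and 8 h. The log2 fold change was 0.06 ± 0.05 at 0 h (SE, edgeR adjusted p = 0.317), -0.28 ± 0.05 at 4 h (6.7e-06) and -0.35 ± 0.05 at 8 h (5.4e-09). The values at 4 and 8 h were called under every alternative tried, over -0.64 to -0.23 and -0.60 to -0.31. The value at 0 h was called lower with library size alone (-0.15), ribosomal protein scaling (-0.27) and ventricular marker scaling (-0.33).

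With TMM scaling the courses of Rcan1 during the block differed between the genotypes. In KO, it stood at 394 ± 6.66 CPM at 4 h and fell to 314 ± 10.6 CPM at 8 h, against 393 ± 23.2 CPM at 0 h (SD, n = 3 each). In WT it rose to 480 ± 7.18 CPM at 4 h (n = 2) and stood at 401 ± 29.2 CPM at 8 h, against 377 ± 18.7 CPM at 0 h (SD, n = 3 each). The fall in KO by 8 h was called under all 10 alternatives, at -0.32 ± 0.05 on the log2 scale (SE, edgeR adjusted p = 2.9e-08), while the change in WT was 0.09 ± 0.05 (0.0882), which was called higher without WT replicate 3 at 0 h, without WT replicate 1 at 8 h and with RLE size factors (0.12). With ribosomal protein scaling (-0.57, 4.0e-12) and ventricular marker scaling (-0.37, 8.1e-07) Rcan1 was lower at 8 h in WT as well, beside -0.71 and -0.65 in KO. The difference of the changes was -0.34 ± 0.07 at 4 h (SE, 0.00307) and -0.41 ± 0.06 at 8 h (1.4e-05). The 4 h call was lost without KO replicate 1 at 0 h (adjusted p = 0.0903) or without WT replicate 2 at 4 h (0.104), and it was also lost with library size alone (-0.19). Both calls were lost with ribosomal protein scaling (-0.38 at 4 h and -0.14 at 8 h) and ventricular marker scaling (-0.28 at both times).

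The authors' deposited ratios put Rcan1 at 0.672, 0.701 and 0.687 of the KO baseline mean in KO at 8 h, against 0.857, 0.988 and 0.937 of the WT baseline mean in WT at 8 h. The KO libraries were the lower in these values too, although tested by limma on these ratios the difference at 8 h was -0.43 and not called (adjusted p = 0.170). Rcan1 counts per 100 Actc1 counts were 1.87, 1.85 and 1.89 in KO at 8 h, against 3.04, 3.13 and 2.94 in WT. At 0 h they were 2.82, 2.78 and 2.76 in KO, against 3.32, 3.28 and 3.41 in WT, so the groups were separate at both times (two-sided exact permutation p = 0.1, the smallest possible). Here too Actc1 was itself higher in KO at 0 and 8 h with TMM scaling (0.32 and 0.35). Gene counts do not separate the transcripts from the 2 start sites of Rcan1, of which the downstream one answers to NFAT.

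**Figure D4:**
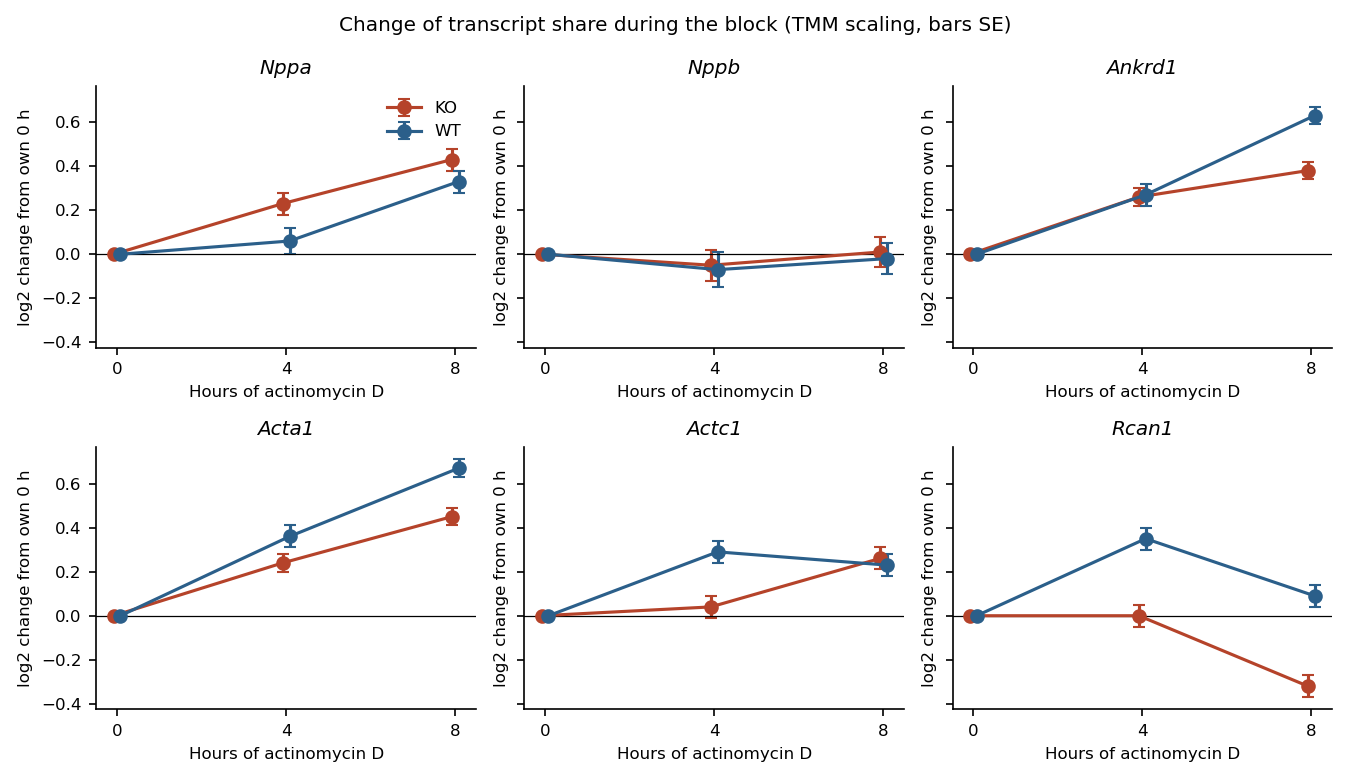
Log2 change from the same genotype's 0 h libraries (vertical axis, TMM scaling) against hours of actinomycin D, for KO and WT; bars give the SE. Ankrd1 and Acta1 reach 0.38 and 0.45 in KO and 0.63 and 0.67 in WT at 8 h, Nppb stays near 0, and Rcan1 is at -0.32 in KO and 0.09 in WT.

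Of the calcineurin and NFAT genes, 2 of 14 tested (16 listed) were higher and 2 lower in KO at 0 h with TMM, with a median log2 fold change of 0.01. With library size alone 9 were lower (median -0.19), with ribosomal protein scaling 11 (-0.32) and with ventricular marker scaling 12 (-0.37). Of all 13229 tested genes, 5563, 7644 and 8512 were lower under these scalings, in the same order. Ppp3cc, a catalytic subunit of calcineurin, was called higher (0.30 ± 0.06, SE, edgeR adjusted p = 1.2e-04), as was Myoz2, a calcineurin-binding Z disc protein gene (0.24 ± 0.05, 3.7e-04), and both calls were lost when only library size was used, and ribosomal protein scaling turned the values to -0.03 and -0.10. Nfat5, an NFAT relative that does not depend on calcineurin, was lower at 24.4 ± 2.29 CPM in KO against 29.8 ± 1.61 CPM in WT (-0.29 ± 0.07, SE, 0.00153), called under all 5 scalings. By 8 h in WT, 6 were higher and 4 lower than at 0 h with TMM. With ribosomal protein scaling 13 were lower, where 11293 of all tested genes were lower. Nfat5 fell to 16.1 ± 1.94 CPM at 8 h in WT, by 0.89 ± 0.08 (SE, 4.2e-15), and its change in KO was 0.52 ± 0.11 higher than in WT (0.00207). Myoz2 rose in WT to 1146 ± 78.2 CPM at 8 h, against 680 ± 37.8 CPM at 0 h, and the change in KO minus that in WT was -0.40 ± 0.07 (SE, edgeR adjusted p = 7.0e-04). That call was lost with ribosomal protein scaling (-0.12) and with ventricular marker scaling (-0.26, adjusted p = 0.172).

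Transcription factors that act on the promoters of these genes were measured too, and all 18 listed were tested. In KO at 0 h, 4 were higher and 3 lower with TMM, 1 and 8 with library size alone, and 13 were lower with ventricular marker scaling. Of all 13229 tested genes, 5563 were lower with library size alone and 8512 with ventricular marker scaling. Hand2 had the largest difference of the higher ones, with 20.7 ± 1.33 CPM in KO against 14.1 ± 0.467 CPM in WT (0.56 ± 0.08, SE, edgeR adjusted p = 2.1e-08), a call lost with ventricular marker scaling (0.17), and Srf, which binds the CArG box, was called at 0.28 ± 0.06 (1.1e-04) and turned to -0.06 with ribosomal protein scaling. Tead1, which binds the MCAT site, was lower at 98.8 ± 0.723 CPM in KO against 125 ± 4.18 CPM in WT (-0.34 ± 0.05, SE, 1.1e-08), under all 5 scalings. During the block 9 of the 18 were lower at 8 h than at 0 h in WT, with a median log2 fold change of -0.11 with TMM. With library size alone 14 were lower (median -0.32), and with ribosomal protein (-0.78) or ventricular marker scaling (-0.57) all 18. Over all tested genes, 5898, 11293 and 9122 were lower under these scalings, in the same order. Mrtfa, an SRF coactivator gene, and Tbx3, a T-box repressor gene, fell furthest, by 1.29 ± 0.26 (SE, 2.9e-05) and 1.10 ± 0.20 (5.2e-06), from levels of only 2.12 and 3.02 CPM.

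Other fetal and hypertrophy genes were divided, 8 higher and 9 lower in KO at 0 h of 22 tested (23 listed) with TMM. With ventricular marker scaling 4 were higher and 13 lower, where 341 of all 13229 tested genes were higher and 8512 lower. Tnnt1, slow skeletal troponin T, had 49.5 ± 2.84 CPM in KO against 11.1 ± 0.797 CPM in WT (2.16 ± 0.07, SE, edgeR adjusted p = 5.6e-36), and Myl1, a skeletal essential light chain, had 36.7 ± 0.143 CPM in KO against 10.3 ± 1.44 CPM in WT (1.83 ± 0.08, 7.6e-26). Myl7, the atrial regulatory light chain, was lower at 1.2 ± 0.325 CPM in KO against 3.82 ± 0.544 CPM in WT (-1.66 ± 0.21, SE, 1.8e-09). Fos, an immediate early gene, was lower at 38.4 ± 2.13 CPM in KO against 75.7 ± 1.18 CPM in WT (-0.98 ± 0.06, SE, 7.4e-23). All 4 were called under each of 5 scalings. Egr1, another immediate early gene, had 126 ± 5.55 CPM at 8 h and 103 ± 1.97 CPM at 0 h in KO, and 145 ± 4.24 CPM at 8 h and 184 ± 13.4 CPM at 0 h in WT (SD, n = 3 each), so its change in KO was 0.64 ± 0.07 higher than in WT (SE, 4.6e-10), under all 5 scalings.

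Counts of members called during the block are given here against those of all genes. In KO, 3 were higher at 4 h than at 0 h, where 24.9% of tested genes were called, 11.4% higher and 13.5% lower. By 8 h in KO, 4 were higher and 1 lower, where 44.6% were called, 21.4% higher and 23.2% lower, and between 4 and 8 h in KO 3 were higher and 1 lower, where 8.59% were called, 4.78% higher and 3.82% lower. In WT, 4 were higher at 4 h than at 0 h, where 28.5% were called, 15.9% higher and 12.6% lower. By 8 h in WT, 4 were higher, where 51.8% were called, 25% higher and 26.8% lower, and between 4 and 8 h 3 were higher and 1 lower, where 18.5% were called, 8.9% higher and 9.55% lower. The median change by 8 h was 0.32 in KO and 0.28 in WT over the 6 genes, against -0.02 and -0.03 over all tested genes. These counts hold for TMM scaling. Under ribosomal protein scaling 4 members were lower at 8 h than at 0 h in WT (median -0.39), where 11293 of 13229 tested genes were lower. In KO with that scaling 3 were lower at 4 h than at 0 h, where 4617 genes were lower. By 8 h in KO 2 were lower than at 0 h (median -0.08), where 8235 genes were lower. With ventricular marker scaling 2 were higher and 3 lower at 8 h than at 0 h in WT, where 239 genes were higher and 9122 lower. Comparisons within a genotype share their 0 h, 4 h or 8 h libraries.

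Differences between the genotypes in these changes were less frequent. At 4 h, Rcan1 was the 1 member called, lower in KO, where 0.348% of tested genes were called, 0.242% higher and 0.106% lower. At 8 h, 3 members were called, all lower in KO, where 5.2% were called, 1.87% higher and 3.33% lower. They were Rcan1, Ankrd1 and Acta1, the last at -0.21 ± 0.06 (SE, edgeR adjusted p = 0.0253). The Acta1 call was lost without KO replicate 3 at 0 h (0.153), KO replicate 1 (0.0623) or replicate 2 (0.134) at 8 h, or WT replicate 1 at 8 h (0.0527). It was also lost with no filter on low counts (-0.16, edgeR adjusted p = 0.133). Nppa and Nppb changed by 0.11, with a 95% interval of -0.03 to 0.25, and 0.03, with an interval of -0.17 to 0.22, more in KO than in WT by 8 h, and neither was called. Under ribosomal protein scaling the members called at 8 h were 3 others, all higher in KO, Nppa (0.38, adjusted p = 0.00317), Nppb (0.31, 0.00894) and Actc1 (0.30, 0.0214), as the median of all genes moved by 0.28. Library size alone left 1 member called, Rcan1 (-0.31, 0.0118).

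**Figure D5:**
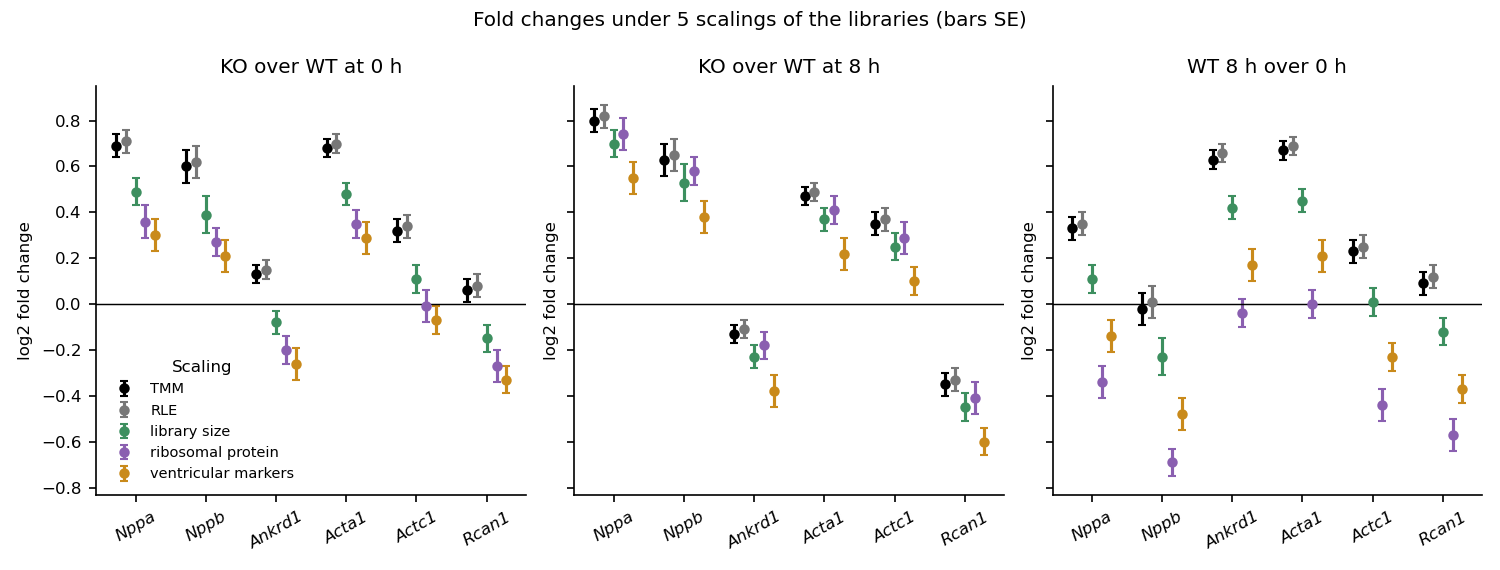
Log2 fold change of each gene (vertical axis, bars SE) for KO over WT at 0 h, KO over WT at 8 h and WT at 8 h over 0 h, under 5 scalings of the libraries. Nppa, Nppb and Acta1 stay above 0 in both genotype panels and Rcan1 stays below 0 at 8 h, whereas the changes of WT during the block move from above 0 with TMM to 0 or below with ribosomal protein scaling for Nppa, Ankrd1, Acta1 and Actc1.

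Across the 17 libraries, which share genotype and time, the log2 levels of Nppa correlated most with those of Acta1 (Pearson r = 0.925) and Nppb (0.893), and least with Rcan1 (-0.595). Nppb and Ankrd1 were nearly unrelated (0.0861). Among 6633 candidate genes, those most like Nppa were Afg1l and Aifm1 (both 0.982), most like Nppb were Ints10 (0.967) and Frmd5 (0.966), and most like Ankrd1 were Ech1 (0.985) and Scp2 (0.982). Acta1 was closest to Casq2 (0.988) and Actn2 (0.987), Actc1 to Slc25a12 (0.954) and Tufm (0.951), and Rcan1 to Pvr (0.867) and Hmox1 (0.855). Casq2 and Actn2 encode sarcoplasmic reticulum and Z disc proteins, and Actn2 is among the ventricular markers given above. These correlations carry no test, since libraries of one group are not independent of its genotype and time. Genes overlapping members on the genome had few counts, at most 10 in any library (A530058N18Rik, which overlaps Actc1).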

How the data were processed

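RNA of 17 libraries in 6 groups of genotype and hours of actinomycin D was analysed. The authors deposited whole-number counts per gene, and a second table of ratios of each library to the mean of its genotype's 0 h libraries. Per the submitters' processing notes, STAR, featureCounts, DESeq2 and limma and the builds GRCm38 and mm10 were used; the sources used here give no versions, strand setting or handling of reads shared between genes. The deposited ratios are not the counts times 1 factor per library: over 15 libraries the multiplier ran, between genes of at least 100 counts, from 0.945 (5th percentile) to 1.12 (95th) times its median, so they served only as an alternative for changes over time, tested with limma 3.58.1 on log2(ratio + 0.01) or log2(ratio + 0.1).

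Counts were tested with edgeR 4.0.16 in R 4.3.3 (TMM, filterByExpr, robust quasi-likelihood fit of the 6 groups, Benjamini-Hochberg adjustment over 13229 genes holding 99.9% of counts, called at 0.05). Intervals are the estimate ± 1.96 SE. One row without a gene name, with 0.00735 to 0.0155% of counts, was left out. Variation between libraries of a group beyond counting noise, from edgeR's common dispersion, was 5.29%, and it may be technical. Library totals are given in the report. Alternatives were DESeq2 1.42.0, other scalings, no filter, compared groups only, a replicate block and leaving out each library. The code was tested on simulated data. Genes of pathway lists were named by size of change, up to 2 each way among called genes of a list at 0 h, over 8 h in WT and in the interaction at 8 h; the others named are markers and genes most like a member. The members and lists were chosen with earlier results of these data known. The 3′ UTR window of Acta1 is not reported here.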

Additional observations from a re-analysis of the deposited data

Results flagged for a closer look

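With TMM scaling, changes during the block differed between KO and WT, by the test of the difference itself, for Rcan1, Ankrd1 and Acta1. The change in KO minus the change in WT, on the log2 scale, was -0.34 for Rcan1 at 4 h and -0.41 for Rcan1 at 8 h. It was -0.26 for Ankrd1 at 8 h and -0.21 for Acta1 at 8 h. Apart from leaving out libraries, the Acta1 call held under 4 of 10 alternatives. It was lost with no filter on low counts (-0.16, edgeR adjusted p = 0.133). In KO, Rcan1 fell by 8 h, whereas Ankrd1 and Acta1 rose in both genotypes with TMM scaling, less in KO. Ventricular cardiomyocyte markers moved in the same direction, with 4 of 10 called lower in this difference at 8 h and a median of -0.17. The part of the ventricular markers in the 4 values was not tested beyond the scaling to them, under which none of the 4 was called. With ribosomal protein scaling none of the 4 was called either, and Nppa (0.38), Nppb (0.31) and Actc1 (0.30) were called higher in KO in the difference at 8 h.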

How the results depend on the processing

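Nppa, Nppb and Acta1 in KO over WT at 0, 4 and 8 h, Rcan1 in KO over WT at 4 and 8 h and the fall of Rcan1 in KO by 8 h kept direction and call under every alternative tried. Values below are log2 changes of single genes, or numbers of genes called, of the 6 members or of all tested genes. The cause of each change was not tested. Scaling to ventricular markers was added after seeing the data.

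With library size alone, KO over WT at 0 h was -0.08 for Ankrd1 and -0.15 for Rcan1. Over time it was -0.11 for Nppa (WT, 4 h over 0 h), -0.12 for Rcan1 (WT, 8 h over 0 h), -0.02 for Rcan1 (KO, 4 h over 0 h), and -0.10 and -0.03 for Nppb (KO, 8 h over 0 h and over 4 h). Nppb was called lower in WT at 4 h (-0.25) and 8 h (-0.23) over 0 h. It called 1 member between 8 and 4 h in KO and 1 in the interaction at 8 h. In the interaction at 4 h it called 100 genes and, by edgeR, 0 members (2 at an unadjusted p below 0.05), with Ankrd1 at 0.15 and Acta1 at 0.03.

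With ribosomal protein scaling, 8118 genes were called in KO over WT at 0 h, with Ankrd1 at -0.20, Actc1 at -0.01 and Rcan1 at -0.27, and 7785 at 4 h, with Ankrd1 at -0.24 and Actc1 at -0.28. In WT, 1 member was called at 4 h over 0 h (Nppa -0.13). At 8 h over 0 h in WT 11343 genes were called, with Nppa at -0.34, Ankrd1 at -0.04, Acta1 at 0.00, Actc1 at -0.44 and Rcan1 at -0.57. At 8 h over 4 h in WT 9422 were called, with Nppa at -0.21, Nppb at -0.43, Ankrd1 at -0.11 and Acta1 at -0.17. In KO, Actc1 was -0.18 and Rcan1 -0.22 at 4 h over 0 h. At 8 h over 0 h in KO 2 members were called, with Nppb at -0.38, Ankrd1 at -0.02 and Actc1 at -0.14. At 8 h over 4 h in KO 1 member and 2222 genes were called, with Nppb at -0.11 and Ankrd1 at -0.06. The interaction at 4 h had 28 genes and, by edgeR, 0 members (2 unadjusted), with Nppb at -0.01, and that at 8 h had 3032 genes, with Ankrd1 at 0.02, Acta1 at 0.06 and, called higher in KO, Nppa at 0.38, Nppb at 0.31 and Actc1 at 0.30.

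With ventricular marker scaling, 8853 genes were called in KO over WT at 0 h (Ankrd1 -0.26, Actc1 -0.07, Rcan1 -0.33), 7152 at 4 h (Ankrd1 -0.20, Actc1 -0.25) and 6132 at 8 h. In WT, 1 member was called at 4 h over 0 h (Nppa -0.20). At 8 h over 0 h in WT Nppa was -0.14, Actc1 -0.23 and Rcan1 -0.37, and at 8 h over 4 h 2 members and 4390 genes were called (Nppb -0.15). In KO, Actc1 was -0.15 and Rcan1 -0.19 at 4 h over 0 h. At 8 h over 0 h 2 members were called (Nppb -0.31, Actc1 -0.07), and at 8 h over 4 h 1 (Nppb -0.07, Ankrd1 -0.02). The interactions had, by edgeR, 0 members called at 4 h and at 8 h (2 unadjusted at each), with 29 genes and Ankrd1 at 0.06 at 4 h.

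With RLE size factors and DESeq2, Nppb in WT at 8 h over 0 h was 0.01 in both, and Ankrd1 in the interaction at 4 h was 0.00 in both; DESeq2 called 24 genes there and did not call Ankrd1 in KO over WT at 8 h (-0.11, adjusted p = 0.0637). In the interaction at 4 h, Ankrd1 was 0.07 with no filter on low counts and 0.06 with the compared groups only. With no filter, Acta1 in the interaction at 8 h was -0.16 and lost its call. The compared groups only also gave -0.01 for Rcan1 at 4 h and 0.00 for Nppb at 8 h in KO over 0 h.

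The deposited ratios gave, at pseudocounts 0.01 and 0.1, 1 and 1 members called in WT at 4 h over 0 h, with 1038 and 1092 genes and Nppa at -0.09 and -0.08. In WT at 8 h over 0 h they gave 2 and 2 members and Rcan1 at -0.10 and -0.10. In WT at 8 h over 4 h they gave 1 and, by limma, 0 members (4 unadjusted), with 619 and 530 genes. In KO at 4 h over 0 h limma called 0 and 0 members (1 and 1 unadjusted) and 1346 and 1416 genes, with Actc1 at -0.10 and -0.09 and Rcan1 at -0.08 and -0.07. In KO at 8 h over 0 h 2 and 2 members were called, with Nppb at -0.22 and -0.20. In KO at 8 h over 4 h limma called 0 and 0 (2 and 1 unadjusted) and 19 and 3 genes, with Nppb at -0.07 and -0.06. In the interaction at 4 h limma called 0 and 0 members (2 and 2 unadjusted) and 7 and 0 genes (1104 unadjusted at the second), with Ankrd1 at 0.02 and 0.02. In that at 8 h it called 0 and 0 members (3 and 3 unadjusted) and 36 and 9 genes, with Nppb at -0.02 and -0.02 and Actc1 at -0.07 and -0.07.

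Leaving out 1 library at a time, the numbers of genes called ranged over 2349 to 3341 in WT at 4 h over 0 h, 1417 to 2226 in WT at 8 h over 4 h, 625 to 838 in KO at 8 h over 4 h, 26 to 53 in the interaction at 4 h and 422 to 925 in that at 8 h. Members called in the interaction at 4 h were 0 to 1. WT with 1 library left at 4 h is assumed to vary like the other groups. Small changes crossed 0. In WT, Nppa at 4 h over 0 h ran from -0.02 to 0.09, and Nppb from -0.18 to 0.00 at 4 h over 0 h, from -0.06 to 0.08 at 8 h over 0 h and from -0.01 to 0.16 at 8 h over 4 h. In KO, Nppb ran from -0.10 to 0.00 at 4 h over 0 h and from -0.05 to 0.06 at 8 h over 0 h, and Rcan1 from -0.03 to 0.05 at 4 h over 0 h. In the interactions, at 4 h Nppb ran from -0.06 to 0.13 and Ankrd1 from -0.03 to 0.06, and at 8 h Nppb ran from -0.08 to 0.08 and Actc1 from -0.03 to 0.07.

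Deviations of same-numbered replicates from their group means were not correlated between groups (-0.0469 to 0.0382 over 40 pairs). These correlations ran over all tested genes, low counts included, with 2 or 3 libraries per group. They cannot exclude a shared source, and the labels do not say what a replicate number stands for. With a replicate block, Ankrd1 in KO over WT at 4 h was 0.11 and lost its call (adjusted p = 0.0654), Nppb in the interaction at 4 h was -0.02, and no other call of a member changed. WT at 4 h had 2 libraries, counts were at least 1083 for every member in every library, and depth did not limit the members.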
